A study of Mus musculus with 2 samples.

Results

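Very wide sites are DNaseI sites of more than 2500 bp on chromosomes 1 to 19 of lymphoma T6, and 847 of the 53593 sites in the deposited list met that rule. They were chosen by width alone, as the listed end minus the listed start, so width is a description here and no result. The sites of 600 to 1000 bp on the same chromosomes, 14480 in number, served for comparison. The tumour T6 arose in the Eμ-myc mouse, in which an enhancer from the immunoglobulin heavy chain locus (Eμ) drives the Myc oncogene in B lineage cells. Its genotype was Arf-/- Trp53+/+ and its strain is given as C57/Bl6. It was untreated, and its cells were taken from lymph nodes without purification, so other lymph node cells could be present. The series holds 2 libraries of this tumour, and only the list of its DNaseI library was used; its input library was not used here.

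DNaseI cuts DNA where nucleosomes are missing or displaced, as at active promoters, enhancers and insulators. A typical accessible element is about as long as the DNA of 1 or a few displaced nucleosomes. Much longer accessible stretches are known at the starts of highly transcribed genes and where several regulatory elements lie side by side, and the way a caller joins neighbouring signal also sets their length. Such elements tend to gather in gene-rich parts of the genome, so the surroundings of very wide sites are described below by the number, distance and width of the sites near them.

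The list gives the position of each site and no score, height or read count. Depth and the strength of a site are therefore unknown. There was 1 library and no replicate, so nothing below was tested between groups and no p-value is given. Intervals are at 95%. Those of shares and counts are exact, those of medians come from order statistics, and those of means come from the standard deviation over sites. All treat sites as independent, which neighbouring sites are not, and cover counting error only. Coordinates are mm9, counted from 1. Genes, repeated sequence and the DNA sequence at the sites were not analysed here, because no mm9 annotation or sequence was used.

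The 847 very wide sites made up 1.61% of the 52741 autosomal sites (1.5 to 1.72%) and 6.18% of the bases these sites cover, 2.63 of 42.6 Mb. Most lay near the limit. Their median width was 2857 bp, with quartiles of 2640 and 3311 bp, and 514 of them (60.7%) were at most 3000 bp wide. Only 89 were wider than 4000 bp, and 18 of these were wider than 5000 bp. Just inside the limit were a site of 2501 bp at chr1:156901433-156903933, with 20 other sites within 50 kb, and sites of 2502 bp at chr5:92933097-92935598, with 2, and chr19:4303542-4306043, with 17. Just outside it were sites of 2500 bp at chr11:6314511-6317010 and of 2499 bp at chr18:65460162-65462660, each with 10 others in that range, and one of 2497 bp at chr1:153600812-153603308 with 3. The limit therefore cuts through a continuous range of widths.

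Chromosomes differed in how many very wide sites they held. Numbers ran from 16 on chromosome 16 to 89 on chromosome 3. As a share of the sites of each chromosome, the highest values were 2.28% on chromosome 13 (48 sites, 1.68 to 3.01%), 2.27% on chromosome 17 (55 sites, 1.72 to 2.95%), 2.22% on chromosome 3 (89 sites, 1.79 to 2.73%) and 2.22% on chromosome 10 (63 sites, 1.71 to 2.83%). These 4 are the autosomes whose interval lay above the share over all autosomes. The lowest shares were 0.881% on chromosome 4 (29 sites, 0.591 to 1.26%), 0.941% on chromosome 16 (0.539 to 1.52%) and 1.09% on chromosome 2 (44 sites, 0.796 to 1.47%), and these 3 are the autosomes whose interval lay below it. The other 12 autosomes had shares of 1.38 to 1.82% and intervals that held the overall share. Of these 7 calls, that of chromosome 3 was kept at limits of 2000 and 3000 bp and with sites at most 500 bp apart joined. Its share was 5.69% (4.995 to 6.46%) against 4.27% over all autosomes above 2000 bp, 1.05% (0.757 to 1.42%) against 0.631% above 3000 bp, and 6.27% (5.48 to 7.15%) against 4.75% after joining. The intervals of the other 6 held the overall share in at least 1 of these settings. Chromosome 13 lost its call in all 3 of them, with 4.98% (4.09 to 6.001%), 0.854% (0.507 to 1.35%) and 5.41% (4.40 to 6.58%). Chromosome 17 lost it above 3000 bp, where its share of 0.579% (0.317 to 0.969%) was under the overall one, and after joining (5.69%, 4.71 to 6.79%), and chromosome 10 above 2000 bp (4.51%, 3.78 to 5.34%). Of the low ones, chromosome 4 lost its call above 2000 bp (3.62%, 3.005 to 4.31%) and above 3000 bp (0.425%, 0.233 to 0.713%), chromosome 2 above 3000 bp (0.497%, 0.304 to 0.767%) and after joining (4.04%, 3.40 to 4.76%), and chromosome 16 above 3000 bp (0.353%, 0.130 to 0.767%). Within the 4 high chromosomes, and within the 3 low ones, the shares did not differ beyond their intervals.

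**Figure D1:**
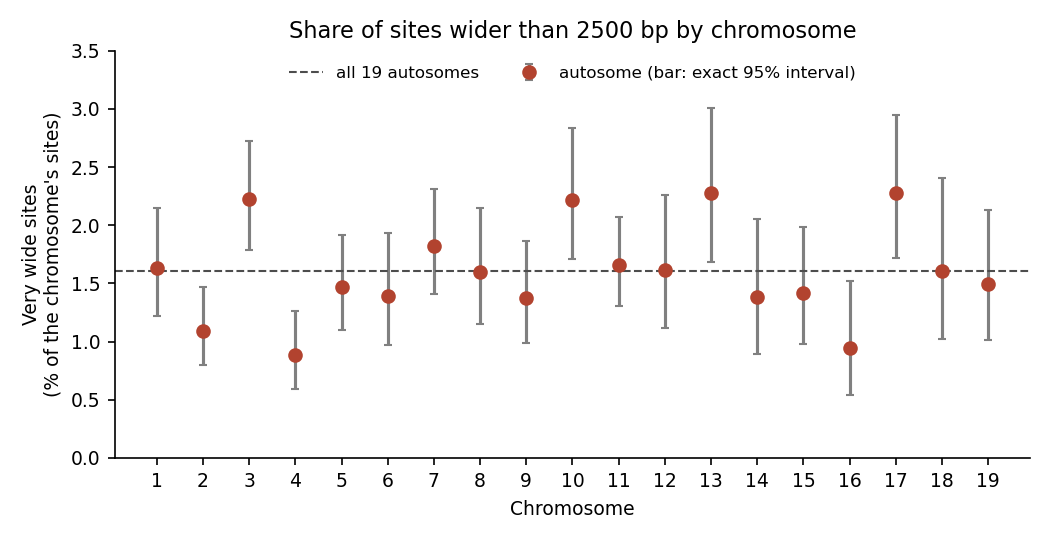
Very wide sites as a percentage of all sites of each autosome, with exact 95% intervals as bars; the dashed line is the share over the 19 autosomes, 1.61%. Chromosomes 3, 10, 13 and 17 have intervals above the line and chromosomes 2, 4 and 16 have intervals below it.

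Taken per gene or per length, the order changed for most chromosomes but chromosome 3 stayed high. Per 100 protein-coding genes, from the GRCm38.p6 gene table of RefSeq, a build other than that of the sites, from which nothing but the chromosome of each gene was taken, chromosome 3 held 9.05 very wide sites (7.27 to 11.1). Chromosome 10 followed with 6.29 (4.84 to 8.05) and chromosome 13 with 5.79 (4.27 to 7.68), and the median of the 19 autosomes was 4.24. Chromosome 4 was lowest at 2.18 (1.46 to 3.14). Per 10 Mb between the first and the last site, the gene-rich chromosome 11 came first with 6.23, before chromosome 17 with 5.96 and chromosome 3 with 5.70, and chromosome 16 came last with 1.68. All sites of chromosome 3 were numerous for its genes as well, so that its count per gene does not set very wide sites apart from the rest. Its share of 2.22% sets them against the sites of the same chromosome. The copy number of chromosomes in this tumour was not tested.

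On some chromosomes, many of the very wide sites lay in a short stretch. On chromosome 13, 17 of the 48 very wide sites lay between 21 and 24 Mb, where they were 11.7% of 145 sites (6.98 to 18.1%). Over the rest of chromosome 13 the share was 1.58% (1.08 to 2.24%). That remainder cannot be set against the share over all autosomes, from which no stretch was taken out. Chromosome 18 as a whole had no high share (1.61%, 1.02 to 2.40%). Of its 23 very wide sites, 10 lay between 34 and 37 Mb, where they were 5.95% of 168 sites (2.89 to 10.7%). The share elsewhere on it was 1.03% (0.550 to 1.76%). Without the 3 Mb that held most of their very wide sites, chromosomes 3, 10 and 17 had 2.08% (1.64 to 2.61%), 2.01% (1.496 to 2.64%) and 2.03% (1.47 to 2.73%), which did not differ from the remainder of chromosome 13 beyond the intervals. The limits of these stretches were set after the positions were seen, so that their shares are high by choice, and the remainders, lowered by the same choice on every chromosome, ran from 0.776% on chromosome 16 to 2.08% on chromosome 3.

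By windows of 1 Mb, very wide sites were present in 524 of the 1898 autosomal windows with any site (27.6%). In 342 of them there was a single one, while 69 windows with 3 or more held 279 of the 847. The fullest windows were 80 to 81 Mb of chromosome 10, with 9 among 186 sites, and 23 to 24 Mb of chromosome 13, with 9 among 68. Chromosome 1 held 8 among 65 sites at 88 to 89 Mb. On chromosome 3, the windows at 87 to 88 and 95 to 96 Mb held 7 each, among 164 and 134 sites, and on chromosome 17 the fullest, at 29 to 30 Mb, held 6 among 121. Some full windows held none. The window at 29 to 30 Mb of chromosome 19 had 137 sites and that at 167 to 168 Mb of chromosome 2 had 132 sites without a very wide one.

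Very wide sites were a larger share of the sites where sites were dense. In windows with 1 to 9 sites they were 0.628% of the sites (0.360 to 1.02%), in windows with 10 to 29 sites 1.28% (1.07 to 1.51%), in windows with 30 to 56 sites 1.53% (1.35 to 1.72%) and in the 264 windows with 57 or more sites 1.96% (1.78 to 2.16%). Sites of 600 to 1000 bp took between 22.0 and 28.7% of the sites in each of these classes, without a further increase in the densest. As a result, 48.8% of the very wide sites and 40.8% of the comparison sites lay in windows with 57 or more sites.

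Successive very wide sites of a chromosome were a median of 761 kb apart (639 to 935 kb, 828 spacings), with quartiles of 142 kb and 3.07 Mb and a mean of 2.67 Mb. The spacing was uneven. At one end, 17 pairs lay at most 1 kb apart, 52 at most 10 kb and 127 (15.3%) at most 50 kb. At the other, 51 spacings exceeded 10 Mb, the longest being 45.3 Mb of chromosome 14 (75418848-120674277), in which 248 narrower sites lay. The comparison sites are far more numerous and so lay closer, a median of 33.1 kb apart with quartiles of 10.2 and 92.6 kb, so that spacing in kb cannot be set side by side with theirs directly. Relative to the median, the mean spacing was 3.51 times for very wide sites and 4.95 times for comparison sites. Uneven spacing was thus not particular to very wide sites. The median number of narrower sites between 1 very wide site and the next was 37.

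The 5 closest pairs were nearly continuous. On chromosome 7, a site of 2620 bp (chr7:152123202-152125821) was followed after 74 bp by one of 4060 bp. On chromosome 11, sites of 2696 and 5113 bp (chr11:62415276-62423179) were 95 bp apart, and on chromosome 8, sites of 2682 and 2770 bp (chr8:13673216-13678767) were 100 bp apart. The remaining pairs were at chr9:56919190-56925405, with 197 bp between sites of 3352 and 2667 bp, and at chr7:52378734-52385316, with 273 bp between sites of 2977 and 3333 bp. Each pair would count as 1 still wider site if short gaps were bridged. Of the 127 pairs at most 50 kb apart, 43 had no site between them.

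With members at most 50 kb apart put together, 625 very wide sites (73.8%) stood alone and 222 (26.2%) formed 95 groups. Most groups were pairs: 71 had 2 members, 18 had 3, 5 had 4 and 1 had 6. The group of 6 covered 114 kb of chromosome 1 (chr1:88311974-88426053), where 26 sites lay in all and the 6 took up 17.04% of the length. Chromosome 13 had groups of 4 at chr13:21806776-21876622, with 8 sites in all, and at chr13:23624282-23714919, with 15. The other groups of 4 were at chr3:95999752-96074337 with 19 sites, at chr8:74793719-74880627 with 17 and at chr11:3031915-3094365 with 36. In the first of the groups on chromosome 13, members were thus as many as the narrower sites among them, whereas on chromosome 11 narrower sites were 32 of 36.

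Very wide sites had more sites around them than the comparison sites did. Within 50 kb of their edges lay 10.7 ± 6.25 other sites (mean ± SD over 847 sites), and within 50 kb of sites of 600 to 1000 bp lay 8.005 ± 5.28. The medians were 10 (quartiles 6 and 14) and 7 (quartiles 4 and 11). The ratio of the means was 1.33 (1.28 to 1.38, with the comparison mean taken as fixed). The single values overlapped widely, as the standard deviations show. At least 10 neighbours were present for 51.4% of very wide sites (47.9 to 54.8%) and 33.9% of comparison sites (33.1 to 34.6%), and 20 or more for 8.15% (6.39 to 10.2%) and 3.11% (2.84 to 3.41%).

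**Figure D2:**
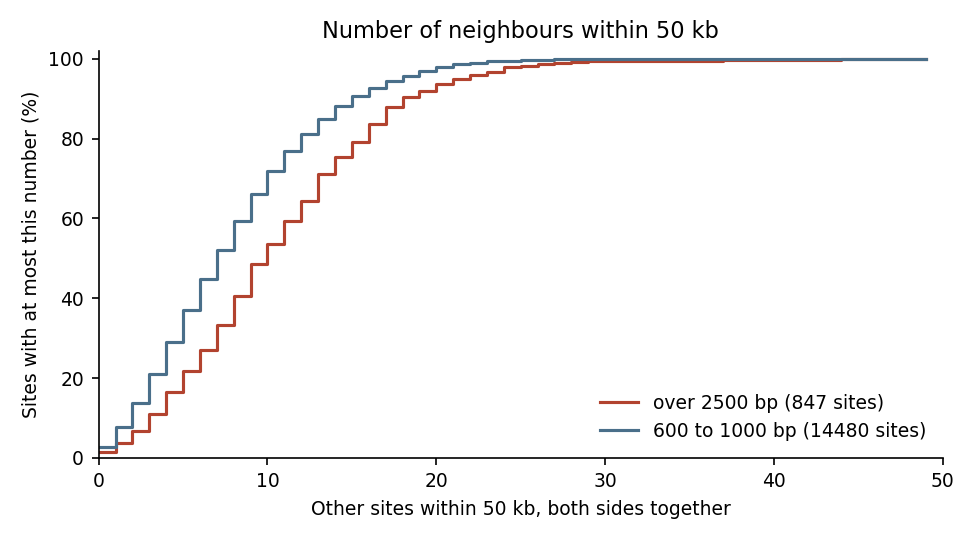
Cumulative share of sites (%) by the number of other sites within 50 kb on both sides together, for the 847 very wide sites and the 14480 sites of 600 to 1000 bp. The curve of the very wide sites lies to the right, with a median of 10 against 7.

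Both sides took part. To the left, towards lower coordinates, very wide sites had 5.44 ± 3.85 neighbours and comparison sites 3.99 ± 3.24. To the right the values were 5.21 ± 3.76 and 4.01 ± 3.24. Left and right are directions of the map and not of a gene, and the numbers on the 2 sides went together only loosely, with a Spearman rho of 0.37 over the very wide sites and 0.34 over the comparison sites, where sites share their surroundings. One side was empty, with a neighbour on the other, for 93 very wide sites (10.98%, 8.95 to 13.3%) and for 16.5% of comparison sites (15.9 to 17.1%). No neighbour at all was found for 13 very wide sites (1.53%, 0.820 to 2.61%), against 2.81% of comparison sites (2.55 to 3.09%).

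By the mean, the number of neighbours was higher at very wide sites on every autosome. This is an order of means only, as no interval was computed for single chromosomes. Where sites were few, as on chromosome 16 with 16 very wide sites, the difference may lie within counting error. The mean at very wide sites ran from 7.69 ± 5.12 on chromosome 16 to 14.1 ± 6.54 on chromosome 3, and that at comparison sites from 6.55 ± 4.49 on chromosome 14 to 10.1 ± 6.33 on chromosome 3. The ratio was lowest on chromosome 15 (1.09), chromosome 4 (1.13) and chromosome 16 (1.16), and highest on chromosome 13 (1.53), chromosome 11 (1.46) and chromosome 1 (1.45). By the median, 18 of 19 autosomes had more neighbours at very wide sites, and chromosome 15 had 8 in both classes. With the comparison sites weighted to the chromosomes of the very wide sites, the ratio of means was 1.31.

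**Figure D3:**
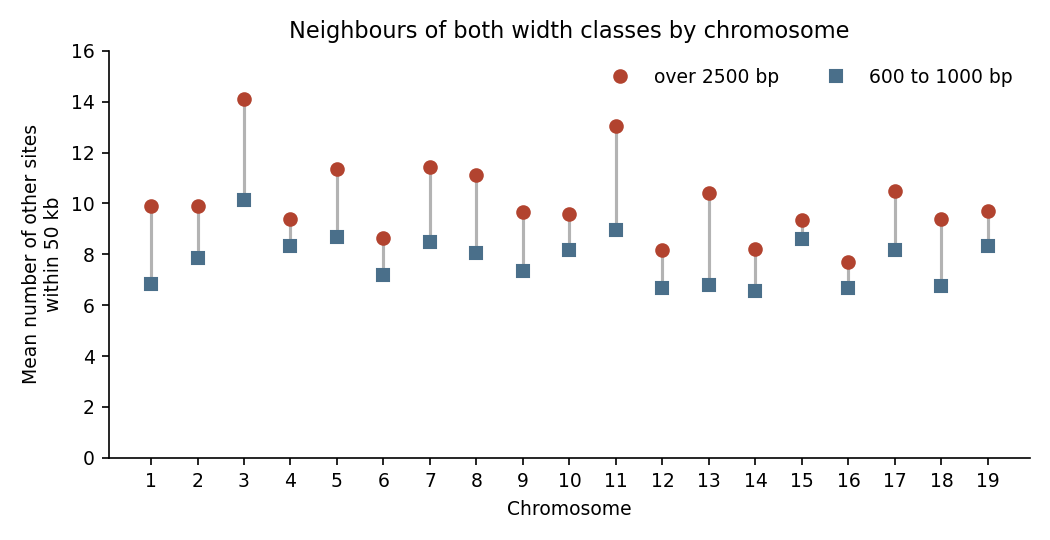
Mean number of other sites within 50 kb of very wide sites (circles) and of sites of 600 to 1000 bp (squares) on each autosome; grey lines join the means of a chromosome. The circle lies above the square on all 19 autosomes, with the smallest ratio on chromosome 15 (1.09) and the largest on chromosome 13 (1.53). No intervals were computed for these means.

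The difference was smaller among sites of the same surroundings. When each very wide site was set against the comparison sites of its own 1-Mb window, which was possible for 843 of them, the means were 10.7 and 9.12 and the ratio was 1.17 (1.13 to 1.22). This setting was chosen after the data were seen.

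In steps of 5 kb, the higher density was most marked in the first 15 kb and became small with distance. In the first 5 kb from the edges, very wide sites had 17.1 other sites per 100 kb and comparison sites 12.1, a ratio of 1.41. The ratio was 1.42 at 5 to 10 kb, 1.46 at 10 to 15 kb and between 1.26 and 1.32 in the steps from 15 to 45 kb. At 45 to 50 kb the densities were 8.18 and 7.04 per 100 kb, a ratio of 1.16. Farther out it was 1.21 over 50 to 100 kb, 1.14 over 100 to 250 kb, 1.08 over 250 to 500 kb and 1.09 over 500 kb to 1 Mb. Sites of over 1500 and up to 2500 bp did not follow this pattern. Their ratio to the comparison sites stayed between 0.995 and 1.10 in every 5-kb step. Within the first 5 kb, the ratio of very wide to comparison sites was 1.30 at 0 to 0.5 kb, 1.46 at 0.5 to 1 kb and 1.44 at 1 to 5 kb. At 0 to 0.5 kb, very wide sites had 34.6 other sites per 100 kb. Sites under 400 bp had more there, 43.7, as did sites of 400 to under 600 bp, 43.2.

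**Figure D4:**
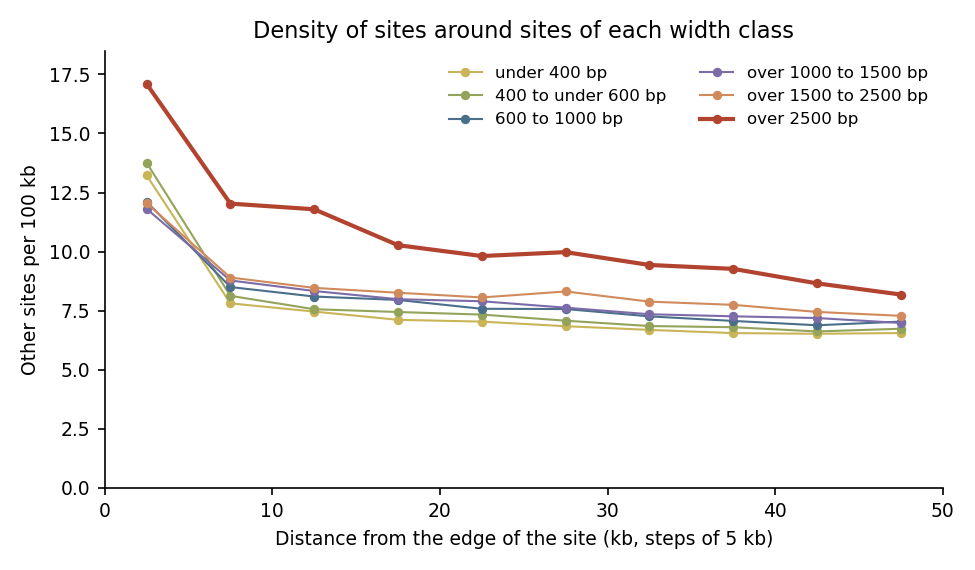
Other sites per 100 kb in steps of 5 kb from the edges of sites of 6 width classes, both sides together. The line of the very wide sites starts at 17.1 and ends at 8.18, above the other 5 classes in every step, and those classes lie close together beyond 5 kb. Within the first 0.5 kb, which the steps do not show, the classes under 600 bp had denser surroundings than the very wide sites.

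Across the whole range of widths, the number of neighbours was nearly flat up to 2000 bp and higher above it. The mean was 7.58 ± 5.44 for sites under 400 bp, 8.12 ± 5.53 for sites over 1000 and up to 1500 bp and 8.24 ± 5.58 for those up to 2000 bp. It was 8.96 ± 5.82 for the next class, up to 2500 bp. Among very wide sites it was 9.93 ± 5.98 up to 3000 bp, 11.6 ± 6.45 up to 4000 bp and 12.1 ± 6.67 above 4000 bp, where there were 89 sites. The last 2 values did not differ beyond their intervals (10.8 to 12.5 and 10.7 to 13.5). The higher values thus began below the limit of 2500 bp. The finer classes were chosen after the data were seen. As a description over sites that share their surroundings, Spearman's rho between width and neighbours was 0.16 over the 847 very wide sites and 0.07 over all autosomal sites.

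**Figure D5:**
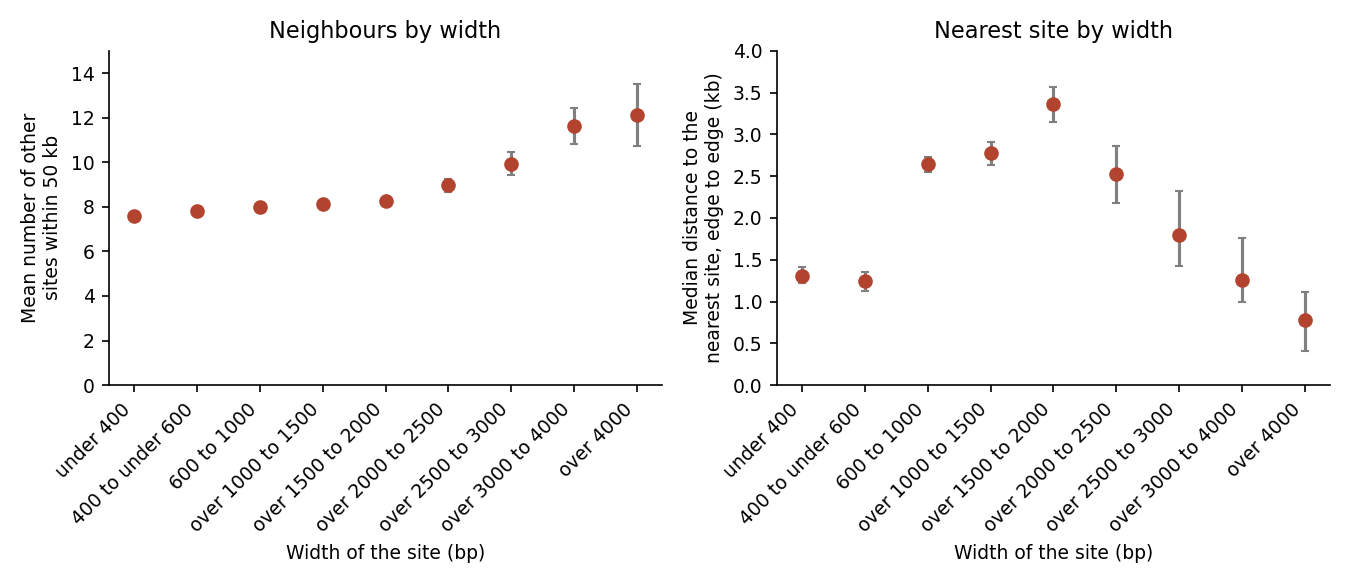
Left, mean number of other sites within 50 kb by width class, with 95% intervals; right, median edge-to-edge distance to the nearest site in kb, with 95% order-statistic intervals. The mean rises above 2000 bp to 12.1, and the median distance is highest over 1500 and up to 2000 bp (3.36 kb) and lowest above 4000 bp (0.779 kb).

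The nearest other site was also closer to the edge of very wide sites. The median distance was 1458 bp (1183 to 1796 bp), against 2641 bp (2553 to 2731 bp) for comparison sites, a ratio of 0.552. Quartiles were 344.5 and 5326 bp for very wide sites and 534.8 and 8157 bp for the others. Another site lay within 500 bp for 30.8% of very wide sites (27.7 to 34.0%) and 24.2% of comparison sites (23.5 to 24.9%), and within 1 kb for 43.0% (39.6 to 46.4%) and 33.2% (32.4 to 33.9%). Within 5 kb the shares were 74.1% (71.1 to 77.1%) and 64.7% (63.9 to 65.5%). A neighbour within 1 kb on both sides was present for 59 very wide sites, which is 6.97% (5.34 to 8.89%), and for 4.07% of comparison sites (3.75 to 4.40%).

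This difference depended on measuring from the edges. From centre to centre the median distance was 3560 bp for very wide sites and 3450 bp for comparison sites. The ratio was 1.03 (0.968 to 1.16), so that no difference beyond the interval was left. A distance between centres takes in part of the width of both sites, and how far this alone changed the ratio was not tested. The number of neighbours did not depend on measuring from the edges in this way, with a ratio of means of 1.31 from centre to centre. By chromosome, the median edge-to-edge distance was shorter at very wide sites on 15 of 19 autosomes. Its interval lay wholly below the comparison value on 6 of these 15 (chromosomes 1, 3, 8, 9, 11 and 13) and held it on the other 9. The distance was longer on chromosome 16 (4370 against 3311 bp), chromosome 5 (2850 against 2503 bp), chromosome 19 (2406 against 2348 bp) and chromosome 4 (2423 against 2420 bp), and in each of these the interval of the very wide sites held the comparison value.

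The nearest distance did not run evenly with width. Its median was 1310 bp for sites under 400 bp and 1241 bp for those of 400 to under 600 bp, then 2641 bp for comparison sites, 2777 bp over 1000 and up to 1500 bp and 3357 bp for the class up to 2000 bp. From there it was lower with each class, at 2526 bp up to 2500 bp, 1792 bp up to 3000 bp, 1256 bp up to 4000 bp and 779 bp above 4000 bp (406 to 1119 bp). Both the narrowest and the widest sites thus had a close neighbour more often than sites between them. The close neighbours were not alike, however. Where the nearest site was within 500 bp, its median width was 712 bp beside very wide sites (quartiles 382 and 1261 bp, 261 sites) and 384 bp beside sites under 400 bp. Beside comparison sites it was 654 bp and beside sites over 1500 and up to 2500 bp 646 bp, so the low value was that of narrow sites. It was under 400 bp wide for 28.4% of the very wide sites (23.0 to 34.2%), 27.0% of comparison sites (25.5 to 28.5%) and 52.9% of sites under 400 bp (51.7 to 54.1%). It was over 1500 bp wide for 15.3% of the very wide sites (11.2 to 20.3%) and 9.92% of comparison sites (8.95 to 10.96%). For sites over 1500 and up to 2500 bp the share was 12.9% (11.1 to 14.9%), within the interval of the very wide sites.

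The widths of the neighbours within 50 kb differed little between both classes. Sites under 400 bp were 28.4% of the neighbours of either class, and sites over 1000 and up to 1500 bp were 16.8% of either. Sites of 400 to under 600 bp were 13.5% of the neighbours of very wide sites and 14.2% of those of comparison sites, sites of 600 to 1000 bp 26.6 and 28.2%, and sites over 1500 and up to 2500 bp 11.4 and 10.3%. The relative difference was largest for very wide neighbours. They were 3.37% of the neighbours of very wide sites (304 of 9022) and 2.07% of those of comparison sites (2396 of 115907), a ratio of 1.63. These neighbours are counted from both ends of a pair and shared between sites, so that no interval is given. At least 1 very wide neighbour was present for 26.2% of very wide sites (23.3 to 29.3%), for 15.8% of sites over 1500 and up to 2500 bp (14.8 to 16.8%) and for 13.7% of comparison sites (13.1 to 14.2%). Above 4000 bp the share was 40.4% (30.2 to 51.4%). Among the 625 very wide sites without a very wide neighbour the mean was 9.27 neighbours, against 7.29 among comparison sites without one, a ratio of 1.27 (1.21 to 1.33). This split was chosen after the data were seen, and it keeps sites with fewer neighbours in both classes.

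Single very wide sites ranged from crowded to isolated. The 4 with most neighbours all belonged to the start of chromosome 11. There, chr11:3056392-3059149 (2758 bp) had 48 others within 50 kb, chr11:3042230-3045300 (3071 bp) had 44, chr11:3031915-3036035 (4121 bp) had 38 and chr11:3091274-3094365 (3092 bp) had 37. The fifth was chr3:95476095-95481342 (5248 bp) with 30, of which 15 lay on each side. Without all sites, of any width, that start in the first 3.5 Mb of a chromosome, the ratio of mean neighbours was 1.32. Among the sites left out were 10 very wide ones. Whether repeated sequence there adds reads was not tested.

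The 10 widest autosomal sites were mixed in this respect. The widest, chr12:114656655-114667679 (11025 bp), had 2 neighbours, both on its left, the closer of them 177 bp away. There were 8 neighbours at chr7:107648725-107655464 (6740 bp), 5 at chr15:61822010-61827741 (5732 bp), 4 at chr17:71198006-71203721 (5716 bp) and 5 at chr8:35867509-35873026 (5518 bp). More crowded were chr8:87497963-87504695 (6733 bp) with 17, chr8:87183611-87189884 (6274 bp) with 18 and chr12:81212130-81218315 (6186 bp) with 18. The site chr17:34253770-34260431 (6662 bp) had 27. In contrast, chr17:39979801-39985912 (6112 bp) had none, and the site nearest to it was 419.7 kb away. Of these 10 sites, 5 had fewer neighbours than the median of 10 although at least 1 site was near, and 1 was isolated.

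The 13 very wide sites without a neighbour within 50 kb were spread over 9 chromosomes and, with the exception of the one of 6112 bp, were 2553 to 3212 bp wide. The first 5 in map order were chr1:16093906-16096688, with the nearest site 190.9 kb away, chr1:132611907-132614644 (78.8 kb), chr1:167389472-167392230 (117.1 kb), chr2:5633911-5636487 (55.4 kb) and chr7:150480496-150483048 (140.3 kb). The most remote was at chr12:53703473-53706164, 504 kb from the nearest site. The input signal and repeats at these isolated sites were not analysed here.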

How the data were processed

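DNaseI sequencing was done on 1 library of lymphoma T6. The submitters' processing notes name BWA 0.6.2, SAMtools and the build mm9. Which caller made the sites, with what threshold and joining distance, and whether the input entered, is not given in the sources used here. Per the file, the authors deposited chromosome, start and end of each site, with no other values, so depth is unknown and no threshold by signal could be tried. Width was end minus start. Sites do not overlap. On the autosomes the shortest distance to a nearest site was 52 bp in each of the 6 main width classes. In the finer class over 3000 and up to 4000 bp it was 57 bp. What set the minimum of 52 bp was not tested. A neighbour is a site of the same chromosome whose nearest edge lies within 50 kb; all widths count. Windows of 1 Mb take sites by their start. Named sites are the 10 widest, the 5 with most and 5 with fewest neighbours (ties in map order), the 5 closest pairs, the fullest windows of the 3 chromosomes with the highest shares, and those beside the limit. Other features singled out, among them groups of very wide sites, the finer width classes, the stretches of 3 Mb and other windows, were chosen after their values were seen. Alternatives were other width limits, joined sites, other comparison classes, windows and centre distances, and left-out chromosomes. The members were chosen with earlier results of these data known. The planned gene placement, gene and marker lists, sequence composition and the check of the labelled B cells against markers need an mm9 reference and were not analysed here. Calculations ran in Python 3.11.15 with pandas 2.3.3, numpy 2.4.6 and scipy 1.17.1, and plots in matplotlib 3.10.9. Neighbour counts and distances were tested on simulated data against a direct count, and 0 of 4000 simulated sites differed.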

Additional observations from a re-analysis of the deposited data

Results flagged for a closer look

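The X chromosome was outside the comparisons of autosomes and held 12 very wide sites among its 756 sites (1.59%, 0.823 to 2.76%), the widest of 3445 bp. It was looked at only because its data were not used above, and there was no control list. Its interval held the share over all autosomes, 1.61%, so its count was not unusual for its number of sites. These 12 had 4.08 ± 5.12 neighbours within 50 kb (mean ± SD over sites), against 3.70 ± 3.39 for the 177 sites of 600 to 1000 bp on X. The median distance to the nearest site was 10.3 kb for the 12 and 4.16 kb for the 177, the reverse of the order on the autosomes. No interval was computed for these values, and 12 sites are too few to settle whether the classes differ on X. Outside the autosomes and X, very wide sites were 2 of the 2 sites on mitochondrial DNA (M), the widest of 6565 bp. On the unplaced sequence 9_random they were 2 of 14 sites. These were not analysed further.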

How the results depend on the processing

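Of 80 recomputed values, 36 stayed within the interval of the value reported (or within 1.5 times for a count) and 43 moved by more. The remaining 1 changed direction, with an interval that held equality. Some outcomes were fixed by the setting, so the tally is no measure of robustness. The shares of chromosomes 4, 13 and 17 without chromosome 3 could not change. Shares of very wide sites at other width limits or after joining were largely set by that change. Intervals cover counting error only. The ratio of mean neighbours stayed above 1 in every setting. It was 1.20 for width above 2000 bp, 1.47 above 3000 bp, 1.28 with sites at most 500 bp apart joined, 1.27 with a window of 100 kb, 1.15 with 500 kb, 1.17 within the same 1-Mb window and 1.27 for sites without a very wide neighbour. With each autosome left out in turn it ran from 1.30 (without chromosome 3) to 1.34 (without chromosome 10). The number of very wide sites was 2254 above 2000 bp, 333 above 3000 bp and 2079 after joining, as the change itself sets. The median nearest distance was 2082 bp, 1091 bp and 2945 bp in these settings, 3560 bp from centre to centre and 2054 bp without a very wide neighbour. Its ratio to comparison sites was 0.789 above 2000 bp, 0.413 above 3000 bp, 0.693 against all other autosomal sites and 0.720 without a very wide neighbour. From centre to centre it was 1.03 (0.968 to 1.16), so that no difference beyond the interval was left. Part of the width of both sites is then counted in the distance, and how far this alone changed the ratio was not tested. At least 1 very wide neighbour was present for 20.5% of very wide and 8.14% of comparison sites within 25 kb, and for 36.1 and 22.8% within 100 kb. Window sizes of 500 kb and 1 Mb, the sites without very wide neighbours and leaving out autosomes other than chromosome 3, which was planned, were chosen after seeing the data. Placement at genes was not run. No paired analysis was possible because there was 1 library.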
